A study of Homo sapiens with 6 samples.

Results

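The late enzymes of cholesterol synthesis, which turn the demethylated product of lanosterol into cholesterol, were followed at the transcript level in H460 cells exposed to fluoxetine. The 8 genes TM7SF2, LBR, MSMO1, NSDHL, HSD17B7, EBP, SC5D and DHCR7 were picked by symbol from the 31762 genes of the deposited count table, and all 8 were present and had enough counts to be tested. H460 is a wild-type human lung carcinoma cell line, and fluoxetine is an antidepressant that blocks serotonin reuptake. Total RNA of cells kept in 20 µM fluoxetine for 24 h gave 3 libraries and that of control cells 3 more, all grown in serum-containing RPMI-1640 medium. What the control cells received in place of the drug is not stated. The comparison asked how the transcriptome of treated cells differed from that of control cells. Nothing in the descriptions says whether the 3 libraries of a group came from separate cultures, so the p-values measure the spread between these libraries, which may be technical.

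Cholesterol is built in the endoplasmic reticulum, and after lanosterol has lost its first methyl group the ring system is finished by reductases, a demethylating complex, an isomerase and a desaturase. Most genes of the route are switched on by the transcription factor SREBP2, which is held in the endoplasmic reticulum while sterols are plentiful and is released when they run low. SREBP2 binds sterol regulatory elements together with partner factors, among them NF-Y, which recognises the sequence CCAAT. Inherited defects in several of the late enzymes cause malformation syndromes in which sterol precursors build up, of which Smith-Lemli-Opitz syndrome (DHCR7) is the best known.

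The proximal promoters are shown because the 8 genes belong to one pathway and mostly moved together. The sequences come from RefSeq (GRCh38.p14), which gave a start for all 8 genes and 10 windows in total, since SC5D and DHCR7 have a pair each. The 250 bases before each start were searched on both strands for CCAAT, for the GC box GGGCGG, for the sterol regulatory element core CACNCCAC and for the E-box CACGTG. MSMO1 and LBR, the genes with the largest and the smallest change, are given in full, and for the others only a stretch around the CCAAT motif nearest to the start is given, taken for DHCR7 from the window that holds the motif and for SC5D from the first of a pair of windows that hold the same site. Capitals mark CCAAT or its reverse complement, and every sequence reads 5′ to 3′ on the strand of the gene. The RefSeq starts used here lie inside the deposited gene coordinates for all but HSD17B7, whose start is the same in both. For EBP, SC5D and DHCR7 the whole window used lies inside those coordinates. The DHCR7 start is at 71448393, while the gene on the minus strand reaches to 71452868.
MSMO1 (chr4:165327419-165327668, plus strand): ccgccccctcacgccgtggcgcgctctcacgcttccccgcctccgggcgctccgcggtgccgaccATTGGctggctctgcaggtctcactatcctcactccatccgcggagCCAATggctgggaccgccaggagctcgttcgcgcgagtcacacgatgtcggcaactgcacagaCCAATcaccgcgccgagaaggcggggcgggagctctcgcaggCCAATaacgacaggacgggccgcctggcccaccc
LBR (chr1:225428822-225429071, minus strand): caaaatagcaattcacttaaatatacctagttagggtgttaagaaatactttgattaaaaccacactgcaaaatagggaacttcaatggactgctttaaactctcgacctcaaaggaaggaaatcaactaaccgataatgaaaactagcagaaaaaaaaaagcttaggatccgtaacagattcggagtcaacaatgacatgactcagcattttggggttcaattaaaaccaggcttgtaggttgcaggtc
TM7SF2 (chr11:65111770-65111829, plus strand): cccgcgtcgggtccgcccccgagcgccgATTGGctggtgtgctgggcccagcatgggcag
NSDHL (chrX:152830950-152831010, plus strand): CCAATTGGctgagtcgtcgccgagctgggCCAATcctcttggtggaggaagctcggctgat
HSD17B7 (chr1:162790622-162790681, plus strand): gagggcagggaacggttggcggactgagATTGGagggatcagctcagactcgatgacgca
EBP (chrX:48521748-48521807, plus strand): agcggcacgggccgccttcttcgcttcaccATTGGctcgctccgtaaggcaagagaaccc
SC5D (chr11:121292687-121292746, plus strand): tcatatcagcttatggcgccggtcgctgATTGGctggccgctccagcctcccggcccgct
DHCR7 (chr11:71448410-71448469, minus strand): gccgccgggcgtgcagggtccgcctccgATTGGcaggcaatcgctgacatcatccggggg

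CCAAT stood in the windows of 7 of the 8 genes, LBR being the exception, against 37.0% of all 27305 genes with a RefSeq start. NSDHL held 5 copies, a pair of which overlap in CCAATTGG, MSMO1 held 4 and EBP 3. GGGCGG was found in 6 of 8 genes, without LBR and NSDHL, against 46.2% of all genes. The core CACNCCAC was present only in a window of SC5D (5.9% of all genes) and CACGTG likewise only in SC5D (7.7% of all genes). The window of LBR consisted of G and C to 36.8%, while the windows shown for the other 7 genes ranged from 57.6% for EBP to 75.2% for DHCR7 and the median of all windows was 58.0%. A match is a description of the letters and no evidence of binding, and a missing match speaks only of this window and of the exact letters searched.

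The 6 libraries held between 16157507 and 27823667 counted reads, and every fluoxetine library was less deep than every control library. Mitochondrial genes took 8.13% to 8.89% of the counts in all libraries. Over all 15646 tested genes, edgeR's quasi-likelihood test with adjustment over all of them called 1214 genes higher and 833 lower at an adjusted p-value under 0.05, and DESeq2 called 1106 higher and 1140 lower. The keratins KRT8, KRT18 and KRT19 were abundant, with the 5 epithelial markers summing to 3057 to 4027 CPM (counts scaled to library size) in control and 2689 to 3264 CPM in fluoxetine libraries, whereas EPCAM (at most 0.573 CPM) and CDH1 (at most 0.0607 CPM), markers of cohesive epithelium, were near 0. Leukocyte and endothelial markers summed to at most 0.104 and 0.182 CPM, and the 4 fibroblast markers to 22.3 to 24.1 CPM in control and 16.6 to 17.5 CPM in fluoxetine libraries, nearly all of it COL3A1 and COL1A1. KRT18 and COL3A1 were themselves called lower with fluoxetine, at log2 fold changes of -0.72 and -0.53 (edgeR adjusted p = 0.00162 and 0.0145). The part of these markers in the results was not tested.

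Fluoxetine was accompanied by higher transcript levels of 7 of the 8 late enzymes, and LBR was the one that did not pass the test. The rises ran from 1.52-fold for EBP to 4.33-fold for MSMO1, and no edgeR adjusted p was above 0.00186. Of all tested genes, 7.76% were called higher and 13.1% in either direction. With a fold change of at least 2 as well, 5 of the 8 passed, namely MSMO1, TM7SF2, HSD17B7, DHCR7 and SC5D, against 1.25% of all tested genes, or 1.39% counting both directions. The median log2 fold change was 1.29 over the 8 genes and 0.03 over all tested genes. In 7 of the 8 genes the fluoxetine libraries all lay above the controls, as did those of 17.5% of all tested genes. Where one quantity was compared on its own, groups of 3 limit an exact permutation test to p = 0.1 or more. The levels are those of bulk RNA, in which a change in the share of cells that express a gene and a change per cell cannot be told apart.

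**Figure D1:**
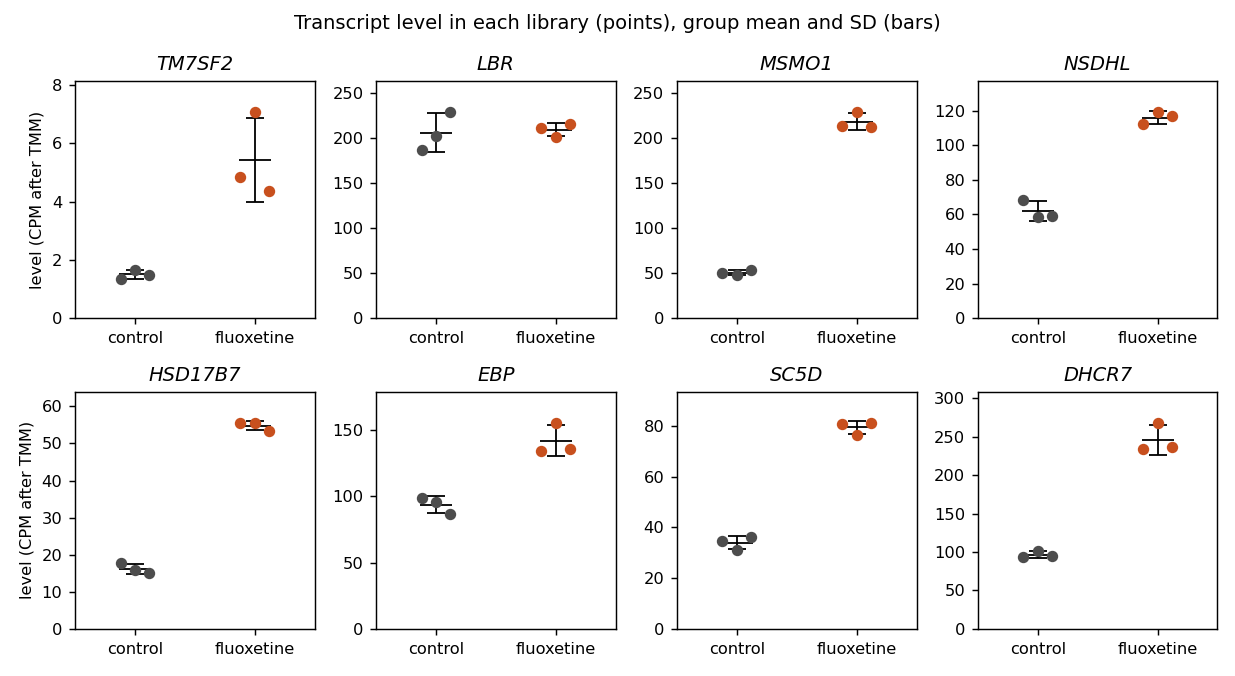
Level of each of the 8 genes in every library, in CPM after TMM normalization on an axis that starts at 0, with control libraries in grey and fluoxetine libraries in orange; the black bars give the group mean and SD (n = 3). The groups are apart in 7 genes and overlap in LBR, and TM7SF2 shows one high fluoxetine library at 7.08 CPM.

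The first reduction, of the double bond left behind by lanosterol demethylation, can be carried out by either of a pair of related proteins. TM7SF2 (ENSG00000149809, chr11:65111845-65116384, plus strand) encodes the sterol reductase of the endoplasmic reticulum. Its raw counts, given like all values in the order of replicates 1, 2 and 3, were 30, 32 and 41 in the controls and 80, 119 and 75 under fluoxetine. After normalization this was 1.36, 1.67 and 1.48 CPM in the control and 4.86, 7.08 and 4.37 CPM in the fluoxetine libraries. All fluoxetine libraries were above all control libraries, and replicate 2 stood highest. The mean level was 1.502 ± 0.155 CPM in control cells and 5.43 ± 1.44 CPM after fluoxetine (SD, n = 3 each). On the log2 scale the rise was 1.86 (SE 0.23, edgeR adjusted p = 8.19e-04). TM7SF2 was the least abundant of the 8 genes and the least precise, and without fluoxetine replicate 2 its log2 fold change was 1.59 (edgeR adjusted p = 0.00257). Its exons share 16 bases with VPS51, a neighbour read in the same direction whose value was -0.08 on the log2 scale (edgeR adjusted p = 0.840).

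LBR (ENSG00000143815, chr1:225401502-225428925, minus strand) encodes the lamin B receptor, a protein of the inner nuclear membrane whose membrane part is also a sterol reductase and whose other part binds B-type lamins and heterochromatin protein. Its level was 186.4, 202.5 and 228.9 CPM in the controls and 210.7, 201.4 and 215.5 CPM under fluoxetine. The fluoxetine libraries all lay within the range of the controls. The means were 206 ± 21.5 CPM (SD, n = 3) and 209 ± 7.17 CPM (SD, n = 3). The log2 fold change was 0.02 (SE 0.08, edgeR adjusted p = 0.893), and its sign turned with DESeq2, with RLE normalization, without a filter on low counts and in 4 of the 6 fits that left out a library. The 95% interval of the fold change ran from 0.893 to 1.16, and the intervals of the other 7 genes began at 1.33 or higher.

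Since either gene can serve the same step, their counts were set against each other within each library, a ratio that library size does not touch. There were 7.30, 8.23 and 6.45 TM7SF2 counts per 1000 LBR counts in the controls and 23.1, 35.1 and 20.3 under fluoxetine. The groups were apart. The log2 ratio was -7.10 ± 0.176 (SD, n = 3) in the controls and -5.30 ± 0.415 (SD, n = 3) under fluoxetine, a difference of 1.80 with an exact two-sided permutation p of 0.1, the smallest this design allows. Per kilobase of exon, TM7SF2 made up 1.12% ± 0.134 (SD, n = 3) of the sum of both genes in control cells and 3.87% ± 1.12 (SD, n = 3) after fluoxetine. The sum itself was 39.6 ± 4.09 CPM per kilobase (SD, n = 3) in control cells and 41.4 ± 0.949 (SD, n = 3) after fluoxetine, and its ranges overlapped between the groups.

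The next steps remove the remaining methyl groups at carbon 4 of the sterol ring and are shared by 3 proteins that work as a complex, namely an oxidase (MSMO1), a decarboxylating dehydrogenase (NSDHL) and a ketone reductase (HSD17B7). All 3 transcripts rose. MSMO1 (ENSG00000052802, chr4:165327623-165343160, plus strand) was at 50.2, 47.6 and 53.1 CPM in the controls and at 212.7, 228.6 and 212.4 CPM under fluoxetine. No fluoxetine library was below 4 times the mean of the controls. Its log2 fold change of 2.11 (SE 0.08, edgeR adjusted p = 2.55e-07) was the largest of the 8, with the second smallest p-value of all 15646 tested genes.

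HSD17B7 (ENSG00000132196, chr1:162790702-162812817, plus strand) also reduces steroid hormones. It was at 17.7, 15.9 and 15.2 CPM in the controls and at 55.4, 55.6 and 53.4 CPM under fluoxetine, so that the fluoxetine libraries lay close together. The log2 fold change was 1.75 (SE 0.10, edgeR adjusted p = 2.73e-06). Its pseudogene HSD17B7P2 on chromosome 10 had 4 to 18 counts per library, so reads could be split between the copies, and with both rows added the log2 fold change was 1.75 (edgeR adjusted p = 2.55e-06).

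NSDHL (ENSG00000147383, chrX:152830967-152869729, plus strand) rose less. It was at 68.6, 58.3 and 59.2 CPM in the controls and at 112.0, 119.3 and 116.8 CPM under fluoxetine. The groups were far apart, with control replicate 1 nearest to the fluoxetine libraries. The log2 fold change was 0.90 (SE 0.08, edgeR adjusted p = 1.16e-04), and the upper end of its 95% interval, 1.09, lay below the lower end for MSMO1, 1.94. Within libraries, the log2 ratio of MSMO1 to NSDHL counts went from -0.30 ± 0.147 (SD, n = 3) to 0.91 ± 0.0409 (SD, n = 3), so MSMO1 went from the lower to the higher count of the pair, with an exact permutation p of 0.1. The 3 genes together came to 51.9 ± 3.26 CPM per kilobase in the controls and 145 ± 4.84 under fluoxetine (SD, n = 3 each).

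EBP (ENSG00000147155, chrX:48521158-48528716, plus strand) encodes the isomerase that moves the ring double bond, a protein first known for binding the drug emopamil. It was at 98.7, 95.8 and 86.4 CPM in the controls and at 134.4, 155.4 and 135.7 CPM under fluoxetine. Every fluoxetine library was above every control library, though by a smaller factor than in the other 6 genes that rose. The log2 fold change was 0.60 (SE 0.09, edgeR adjusted p = 0.00186). Without fluoxetine replicate 2 it was at its lowest over all alternatives, 0.50, and leaving out a library gave edgeR adjusted p of 0.0192 at most.

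SC5D (ENSG00000109929, chr11:121292453-121308694, plus strand) encodes the desaturase that makes 7-dehydrocholesterol, the precursor of both cholesterol and vitamin D. Its level was 34.7, 31.1 and 36.1 CPM in the controls and 80.7, 76.4 and 81.2 CPM under fluoxetine. Each fluoxetine library was above 2 times the highest control library. The log2 fold change was 1.22 (SE 0.09, edgeR adjusted p = 1.66e-05).

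DHCR7 (ENSG00000172893, chr11:71428193-71452868, minus strand) encodes the reductase that turns 7-dehydrocholesterol into cholesterol. It was at 94.1, 101.6 and 94.2 CPM in the controls and at 233.5, 268.3 and 236.3 CPM under fluoxetine. The groups were far apart, and fluoxetine replicate 2 was the highest, as in TM7SF2, MSMO1, NSDHL, HSD17B7 and EBP. The log2 fold change was 1.35 (SE 0.08, edgeR adjusted p = 4.95e-06). An antisense gene, AP002387.1, lies across DHCR7 without sharing exon bases, at a mean of 96.7 counts in control and 98.0 in fluoxetine libraries, and had a log2 fold change of 0.47 (edgeR adjusted p = 0.150).

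**Figure D2:**
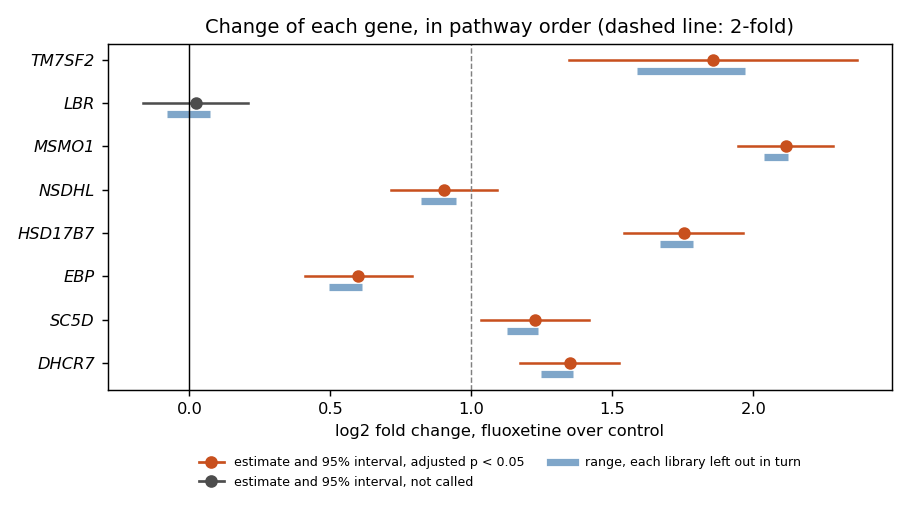
Log2 fold change of fluoxetine over control for the 8 genes in the order of their steps, with the 95% interval from edgeR (thin lines) and the range over the 6 fits that each left out a library (blue bars); the dashed line marks a 2-fold rise. MSMO1 at 2.11 and LBR at 0.02 are the ends of the range, and the bar of each of the 7 genes that rose stays clear of 0.

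Spread within a group was small for most of the 8 genes. The coefficient of variation between the libraries of a group was at most 10.4% in 7 of the genes, and it was 26.6% for TM7SF2 after fluoxetine. Of the 28 pairs that the 8 genes form, 25 had log2 count ratios that did not overlap between the groups, among them all 7 pairs with LBR. The share over all pairs of tested genes was not computed, and 31.9% of single tested genes did not overlap in either direction. Because LBR hardly changed, its 7 pairs restate the rises of the other genes. The 3 pairs whose ratios overlapped were TM7SF2 with MSMO1, TM7SF2 with HSD17B7 and SC5D with DHCR7. TM7SF2 with HSD17B7 kept nearly the same ratio, at a log2 difference of 0.07, below the SD of 0.236 and 0.343 in either group. So did SC5D with DHCR7, at a log2 difference of -0.12, below the SD of 0.175 and 0.159. No pair could be called, since the smallest exact permutation p was 0.1, or 0.112 after adjustment over the 28 pairs.

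Between genes, levels were compared per kilobase of exon, because longer transcripts collect more reads. In control cells LBR (39.2 CPM per kilobase) and EBP (38.9) led without differing beyond their spread, followed by NSDHL (31.1), DHCR7 (23.2), MSMO1 (17.4), SC5D (6.10), HSD17B7 (3.40) and TM7SF2 (0.441), each apart from its neighbour in all libraries. After fluoxetine MSMO1 led (75.4 CPM per kilobase), followed by DHCR7 (59.1), EBP (58.9) and NSDHL (58.1), which overlapped, and then by LBR (39.8), SC5D (14.3), HSD17B7 (11.5) and TM7SF2 (1.59). By these means MSMO1 moved from place 5 to place 1, and LBR from a tie with EBP at the top to place 5. Without division by exon length, LBR led alone in control cells (mean of 206 CPM, against 96.6 for DHCR7 and 93.6 for EBP). After fluoxetine DHCR7 was then highest, above MSMO1, LBR and EBP (means of 246, 218, 209 and 142 CPM). The lead of MSMO1 over DHCR7, the tie of LBR with EBP and place 5 of LBR therefore rest on the exon lengths used. The summed level of the 8 genes was 160 ± 1.73 CPM per kilobase (SD, n = 3) in control and 319 ± 13.1 (SD, n = 3) in fluoxetine libraries. The share of LBR in that sum went from 24.5% ± 2.59 to 12.5% ± 0.893 and that of MSMO1 from 10.9% ± 0.524 to 23.6% ± 0.177 (SD, n = 3 each). The share of NSDHL was 19.5% ± 1.62 and 18.3% ± 0.399, with overlapping ranges only at the edge, from 18.5% to 21.3% and from 17.9% to 18.7%. The exon length is that of all GENCODE release 29 transcripts of a gene joined, so intron stretches that some transcripts keep count as exon and lower the value.

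**Figure D3:**
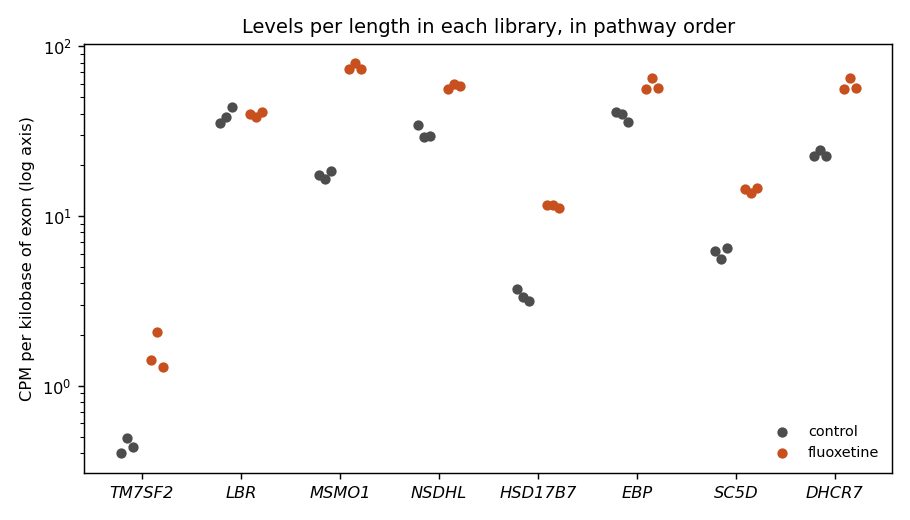
Level of the 8 genes per kilobase of exon in each library, on a log axis, with control libraries in grey and fluoxetine libraries in orange. MSMO1 rises from 17.4 to 75.4 CPM per kilobase on average and passes LBR, which stays near 39.2 and 39.8, while TM7SF2 remains lowest in both groups. Without division by exon length, the fluoxetine libraries of MSMO1 and LBR overlap (means of 218 and 209 CPM).

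The genes also differed in what is annotated to them. All 8 carried the term for cholesterol synthesis in the deposited annotation. Steroid biosynthesis as a pathway was given for 7 and a place in the endoplasmic reticulum for 7, and LBR was the gene that lacked both. A nuclear envelope term was given for LBR, TM7SF2 and EBP.

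Beside the 8 genes stood the other genes of the pathway, in lists written from general knowledge with earlier results of these data known. Of the 11 enzymes that lead to lanosterol, 10 were called higher, all of them by at least 2-fold. Of all tested genes, 7.76% were called higher, and 1.25% by at least 2-fold. The median log2 fold change of the 11 enzymes was 1.45. HMGCS1, an early enzyme of the mevalonate route, rose by 2.65 on the log2 scale (edgeR adjusted p = 6.59e-07), LSS, which closes the sterol rings, by 1.81 and IDI1, an isomerase of the isoprenoid units, by 1.67. PMVK, phosphomevalonate kinase, chosen for mention after its value was seen, was the one that was not called, at -0.08 (edgeR adjusted p = 0.755).

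Among 5 other genes tied to the late steps, 2 were called higher, against 7.76% of all tested genes. ERG28, a membrane scaffold of the demethylating enzymes, rose by 0.88 (edgeR adjusted p = 1.22e-04). EBPL and FAXDC2, relatives of EBP and of MSMO1 that were singled out after their values were seen, were at -0.09 and -0.30 (edgeR adjusted p = 0.677 and 0.600). The demethylase gene CYP51A1, likewise singled out, had 172 counts over all libraries and 1.10 ± 0.308 against 1.95 ± 0.376 CPM (SD, n = 3 each). Its log2 fold change was 0.84 (edgeR adjusted p = 0.0846). Since 2844 of its 3584 exon bases are shared with another gene model on the same strand, AC000120.2, its count is uncertain. None (0) of the 4 genes for electron donors of these oxidations, POR, CYB5A, CYB5B and CYB5R3, was called by edgeR, and 2 of them, POR and CYB5B, had an unadjusted p-value under 0.05 (0.0130 and 0.0461). DESeq2 and limma-voom also called 0 of the 4. Over all tested genes edgeR called 13.1% in either direction, so 0 of 4 says little about these genes.

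Of 11 tested genes of SREBP control and cholesterol uptake, 6 were called higher, against 7.76% of all tested genes. INSIG1, which retains SREBP in the endoplasmic reticulum, rose by 2.40 on the log2 scale and NPC2, a lysosomal cholesterol carrier, by 1.65 (edgeR adjusted p = 2.16e-07 and 1.98e-05). Of 6 tested genes of cholesterol efflux and esterification, 2 were called lower, against 5.32% of all tested genes. These were the exporters ABCG1 and ABCA1, at -0.83 and -0.80 (edgeR adjusted p = 0.0345 and 0.0344). Neither kept its call without control replicate 1 or without any 1 of the 3 fluoxetine replicates, and 1 of them did without control replicate 2. Their levels were low, at 3.34 and 3.21 CPM in control and 1.89 and 1.85 CPM in fluoxetine libraries.

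Since LBR also belongs to the nuclear envelope, 12 genes of lamins, inner membrane proteins and heterochromatin proteins were set beside it. Of these, 5 were called lower and 1 higher, with a median log2 fold change of -0.19. Of all tested genes, 5.32% were called lower and 7.76% higher. The higher call was lost in 4 of the 6 fits that left out a library. LMNB1, a B-type lamin, had a log2 fold change of -0.41, BANF1, a chromatin-bridging protein, of -0.38 and CBX1, a heterochromatin protein, of -0.37 (edgeR adjusted p = 0.00477, 0.0151 and 0.0165). Without fluoxetine replicate 1, and also without fluoxetine replicate 3, 1 of the 12 was called lower. LBR at 0.02 lay above the median of this list and below every late enzyme that rose.

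**Figure D4:**
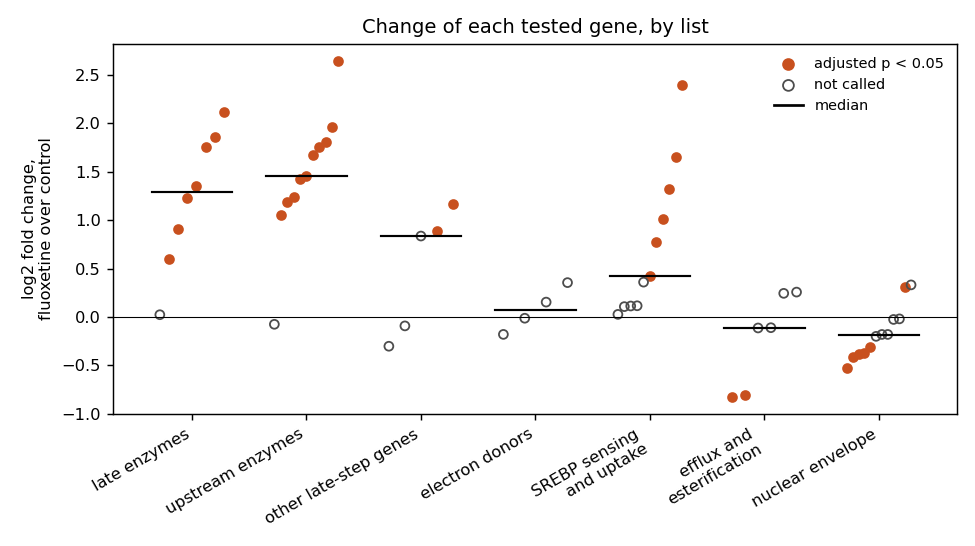
Log2 fold change of every tested gene of the 7 lists, with genes at an adjusted p-value under 0.05 as filled and the others as open circles, and the list median as a line. The late and the upstream enzymes share medians above 1 (1.29 and 1.45), while the nuclear envelope list lies mostly below 0 (median -0.19).

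The genes whose pattern over the 6 libraries was most like the mean pattern of the 8 late enzymes were IDI1, NUPR1, FLCN, ANKRD27 and FDFT1, with Pearson correlations of log2 CPM from 0.9988 for FDFT1 to 0.9997 for IDI1 (n = 6 libraries). The 6 points fall into a control and a fluoxetine cluster and come from the same libraries as the 8 genes, so a correlation this high describes a step between the groups. The step was of unequal size, from a log2 fold change of 0.30 for ANKRD27 to 2.997 for NUPR1. NUPR1 was near the floor, at a mean of 0.306 CPM in control and 2.48 CPM in fluoxetine libraries. IDI1 and FDFT1 act earlier in the same route, while NUPR1 is a stress-induced regulator and FLCN a tumour suppressor at the lysosome.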

How the data were processed

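RNA-seq was done on 3 control and 3 fluoxetine libraries. The authors deposited 1 table of raw read counts per gene, made per the processing notes with fastp 0.20.0, HISAT2 2.1.0, HTSeq 0.10.0 and DESeq2 1.18.1. It also holds columns of the authors' own comparison, a deposited log2 fold change and a deposited p-value, raw and adjusted, which were not used. Strand use in counting and the genome build are not given in the sources used here, but start and end were identical to GENCODE release 29 (GRCh38) for 96.81% of the 31635 genes found in both.

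The main test was that of edgeR 4.0.16 under R 4.3.3 (glmQLFit, glmQLFTest, TMM, filterByExpr, no covariate) and Benjamini-Hochberg adjustment over 15646 genes. TMM factors lay between 0.985 and 1.02. At these depths 3 counts are worth 0.108 to 0.186 CPM, counting error alone. Replicates differed beyond sampling noise, so none repeated another and all were kept. Chi-square per degree of freedom was 3.69 to 25.2 within a group and 22.7 to 52.5 across groups. Some replicates thus differed as much as some control and fluoxetine libraries did.

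The 8 genes and all lists were chosen with earlier results of these data known. A symbol on several rows was read from the row with the most counts. Named are the 8 genes, up to 3 called genes of each list by smallest p, the 5 genes most like the mean pattern (log2 CPM, prior count 2), and overlapping or pseudogene rows. Of the genes this rule covers, 2 are not reported here. Of the further lists, 51 of 53 genes were matched and 49 tested. Ratios within libraries were tested by exact permutation (scipy). On simulated counts, edgeR recovered 98% of 100 genes planted at 2-fold and 100% of 100 planted at 4-fold among 15475 genes. The simulation gave all genes the same variability between replicates and planted changes only in genes above 2 CPM. Genes that vary more or lie lower were not covered. Alternatives were DESeq2 1.42.0, limma-voom (limma 3.58.1), RLE normalization, library size only, other filters on low counts (none, or at least 10 counts in every library), equal depth, the replicate number as a block, added pseudogene counts and leaving out each library.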

Additional observations from a re-analysis of the deposited data

How the results depend on the processing

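The calls of the late enzymes were stable: the same 7 of 8 were higher, and the same 5 by at least 2-fold, under each of the 14 alternatives fitted over all genes, and for HSD17B7 also with pseudogene counts added. LBR was the gene without a call, and its log2 fold change turned sign with DESeq2 (-0.0071), RLE normalization (-0.0029) and no filter on low counts (-0.013), and ran from -0.079 to 0.073 over the fits that each dropped 1 library, where no edgeR adjusted p was under 0.551. The cause of these shifts was not tested. The log2 change of the TM7SF2 to LBR ratio lay between 1.57 and 1.96 without each library and was 1.78 with 1 count added.

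Counts over all genes moved more. Without each library in turn, between 409 and 1627 genes were called higher (1214 with all libraries) and between 163 and 2006 lower (833), the lowest values without fluoxetine replicate 1 and the highest without control replicate 3. Without a filter on low counts 1393 were higher and 1516 lower. Genes called lower in the 6 further lists numbered 1 to 8 without each library in turn (7 with all), with 1 without fluoxetine replicate 1 or 3. By list, 1 of the electron donor genes was called higher without a filter on low counts and with the replicate block, and 1 lower without control replicate 3 (0 with all libraries in both directions). Among efflux and esterification genes, 1 was called higher with library size only, with the block and without control replicate 3 (0 in the edgeR test of the report), and 1 lower with DESeq2 (2 there). Among nuclear envelope genes, 2 were called higher with the block and without control replicate 3, and 0 without control replicate 1 or 2 or fluoxetine replicate 1 or 3 (1 in the report). With the block, 3 of the 5 other late-step genes were called higher (2 in the report).

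With the replicate number as a block, 2231 genes were higher and 1787 lower, and no call of the 8 genes changed. The numbers are not stated to mark a batch, and the deviations of same-numbered libraries from their group means correlated at 0.030, 0.116 and 0.392 for replicates 1, 2 and 3, with control replicate 1 closer to fluoxetine replicate 2 (0.320). With groups of 3, depth limits TM7SF2 most, at 30 to 119 counts per library.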
